A study of Mus musculus with 28 samples.

Results

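MC38 cells given the supernatant of a co-culture were set against MC38 cells given interferon gamma (IFNG) alone, across all genes of the in vitro table. MC38 is a mouse colon adenocarcinoma line of C57BL/6 origin. The comparison rests on 4 libraries, 2 per treatment, chosen by their column names, out of 28 samples in the series. It covered 12720 of the 12721 genes in the table, because 1 gene had the same value in every library.

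All 4 libraries came from unmodified MC38 grown in DMEM with 10 percent FCS and antibiotics, and the labels name no allele or knockout in any of these groups. Supernatant cells received medium taken from a co-culture, which the labels describe no further. IFNG cells received the cytokine for 6 hours. No dose is given for either, and no time is given for the supernatant, so treatment and duration cannot be told apart. The same table holds 2 libraries each of cells given TNF with IFNG, of cells given TNF and of untreated cells. They entered the fit and serve as background. From a second table, normalized separately, 3 libraries of MC38 grown together with OT1 T cells (CD8 T cells with a transgenic receptor for ovalbumin) under isotype antibody and 3 of MC38 alone were used. The titles of the isotype libraries do not name OT1, which was read from their column names, and that of library 2 reads OT2. Their treatment time is given as 6 hours. Nothing in the labels ties the libraries of a group to separate cultures, so p-values measure the spread between these libraries, which may be technical.

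IFNG is a cytokine that activated T cells secrete. It binds the receptor encoded by Ifngr1 and Ifngr2, whose kinases JAK1 and JAK2 pass the signal to the nucleus. Early target genes carry GAS elements in their promoters, and interferon regulatory factors carry the response to a further set of genes with ISRE elements. A co-culture supernatant may hold IFNG together with any other secreted factor and with medium the cells have used, so a direct comparison with IFNG asks which transcripts the single cytokine matches.

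Values are log2 CPM, read counts scaled to a common library total, on a log2 scale, read from the 3' ends of transcripts. Differences are supernatant minus IFNG on that scale, with limma's standard error (SE), so that 1 unit is a 2-fold difference. The tied steps of low values imply about 10400000 and 8090000 reads for the supernatant libraries and 11200000 and 7950000 for the IFNG libraries. Of 13 defining T cell markers, 2 (Lck and Il2) had an entry in the table. Their summed level was 1.11 and 1.78 CPM with supernatant, against 7.10 and 4.53 CPM with IFNG. It was 16.3 and 18.1 CPM with TNF and IFNG, 6.46 and 11.1 CPM with TNF, and 3.35 and 3.46 CPM in untreated cells. Of 9 colon epithelial markers the table listed Cdh1 alone, at 0.337 and 0.370 CPM with supernatant and 0.649 and 0.259 CPM with IFNG. The part of these markers in the results below was not tested.

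The supernatant libraries stood apart from each other. Over all genes their root mean square (RMS) difference was 0.77 log2 units, which is more than in any of the 4 pairings of a supernatant with an IFNG library (0.62 to 0.73). The IFNG libraries differed from each other by 0.61. Supernatant library 1 was nearest to an untreated library (0.65). Supernatant library 2 was nearest to an IFNG library (0.62) and lay 0.80 and 0.87 from the untreated ones. Across 12721 genes, the difference between supernatant library 1 and supernatant library 2 followed the difference between untreated and IFNG cells with r = 0.36 (Spearman's rho = 0.42). It followed the difference between untreated cells and cells given TNF with IFNG about as much (r = 0.38, rho = 0.45), and that between untreated and TNF cells with r = 0.24 (rho = 0.31). The supernatant difference shares no library with these 3 but shares the normalization, and genes are not independent replicates.

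**Figure D1:**
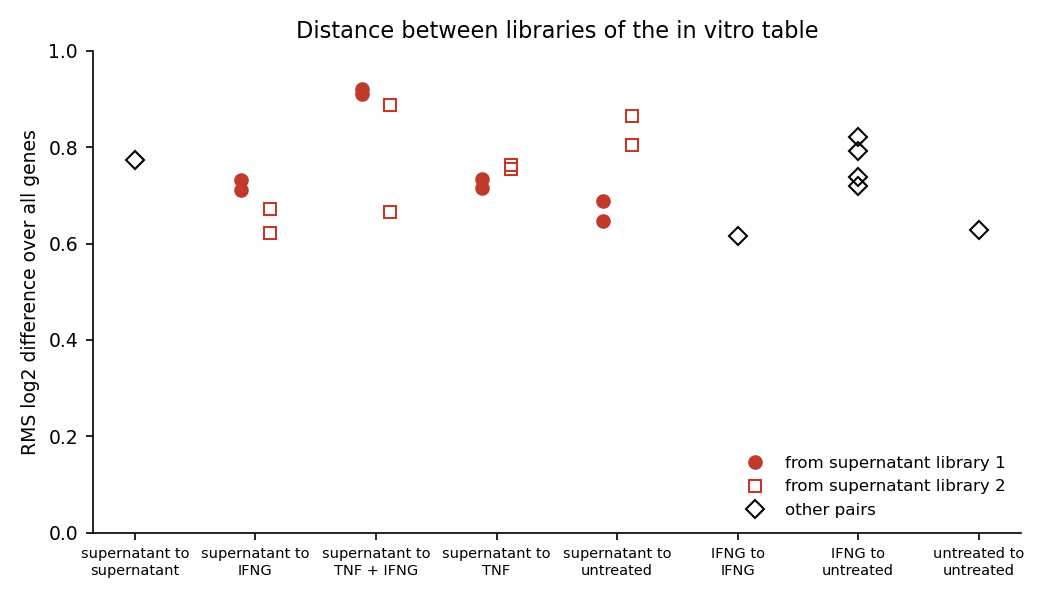
Root mean square log2 difference over all genes between pairs of in vitro libraries, with supernatant library 1 as filled circles, supernatant library 2 as open squares and other pairs as diamonds. The supernatant libraries lay 0.77 apart, and the 4 pairings of supernatant with IFNG lay between 0.62 and 0.73.

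Across all genes, the difference between the supernatant mean and the IFNG mean was centred near 0. Differences of means of 2 libraries cannot be set directly against the distances between single libraries above. The median difference was -0.01, with a 5th percentile of -0.60 and a 95th of 0.64. With limma and Benjamini-Hochberg adjustment over all genes, 1 gene was higher with supernatant (0.00786%) and 0 were lower (0.0%). At an unadjusted p under 0.05 there were 164 genes with a positive difference (1.29%) and 182 with a negative one (1.43%). The 95% interval lay inside 1 log2 unit either way for 8206 genes, which is 64.5% of those tested. For the rest, the interval reached a 2-fold difference or went past it.

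How closely the treatments could be compared depended on the level. Of genes with a mean of at least 8 log2 CPM, 92.0% had their interval inside 1 log2 unit, against 89.3% of genes between 4 and 6 and 9.37% of genes under 2. The median absolute difference between the supernatant mean and the IFNG mean was 0.10 at the highest levels and 0.37 at the lowest. The single supernatant libraries differed from each other by a median of 0.26 and 0.57 in the same bins, and the single IFNG libraries by 0.09 and 0.45. Averaging 2 libraries shrinks a difference, so the values between means and between single libraries are unlike measures. Without supernatant library 1, 0 genes were higher and 3 lower. Without supernatant library 2, 7 were higher and 5 lower, most of them ribosomal or other pseudogenes. The counts were 1 and 1 without IFNG library 1, and 3 and 4 without IFNG library 2. Each of these fits leaves 1 library in an arm, which is assumed to vary like the other groups.

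**Figure D2:**
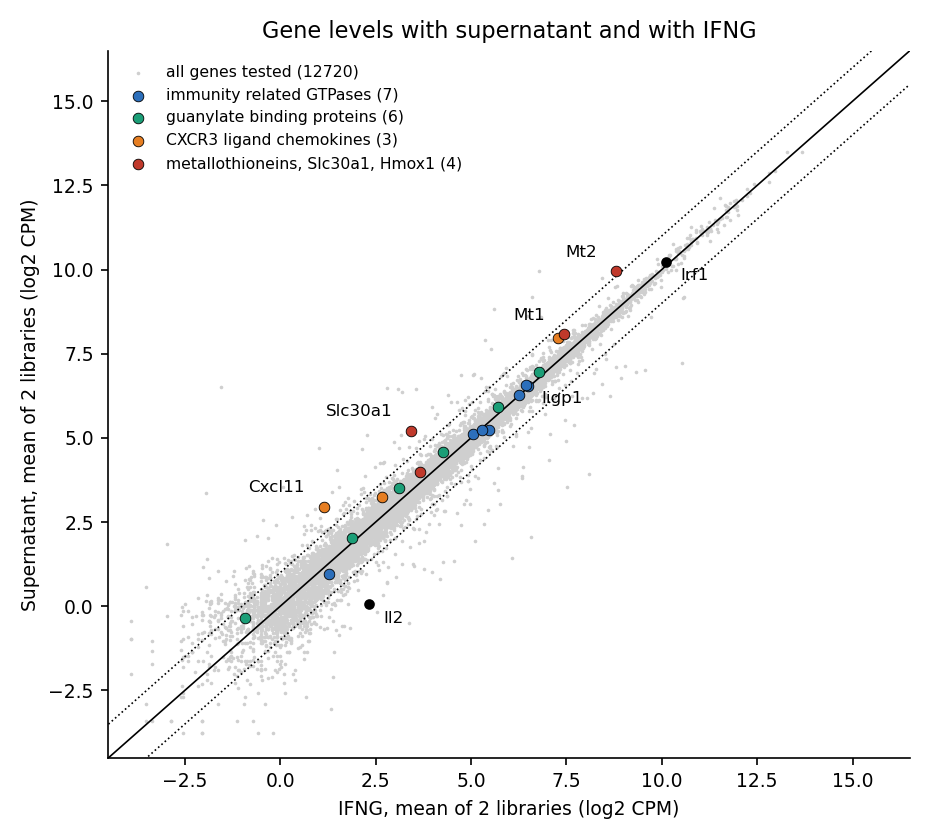
Mean log2 CPM of the 2 supernatant libraries against the mean of the 2 IFNG libraries for 12720 genes, with gene groups in colour. The solid line marks equal levels and the dotted lines a 2-fold difference. Immunity related GTPases lie on the line, whereas Slc30a1 and Cxcl11 lie above the upper dotted line.

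The 1 gene that passed was Slc30a1, which encodes ZnT1, the zinc exporter of the plasma membrane. Its level was 5.17 and 5.25 log2 CPM with supernatant, against 3.37 and 3.48 with IFNG. Cells given TNF and IFNG had 3.20 and 3.11, cells given TNF 3.36 and 3.15, and untreated cells 3.63 and 3.58. Both supernatant libraries were above all 8 others, which lay within a narrow range. The share of all genes with such an order was not counted. The difference was 1.78 ± 0.17 (SE, n = 2 each; 95% interval 1.40 to 2.17), with limma's adjusted p = 0.0371. The size held between 1.69 and 1.84 over 17 alternatives, but the call did not: adjusted p ranged from 0.0256 to 0.276 in limma, and 12 of the 17 missed the threshold. It passed without supernatant library 2 (0.0440) and not without supernatant library 1 (0.0937). The other 8 libraries, left out in turn, each also ended the call, with adjusted p from 0.0686 without TNF + IFNG library 2 to 0.265 without IFNG library 1. The gene overlaps 1700034H15Rik on the opposite strand, and the sources used here do not state whether reads were counted by strand.

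Slc30a1 is known, with the metallothionein genes, as a target of the zinc-sensing factor MTF1. Metallothioneins are small cysteine-rich proteins that bind zinc and copper. Mt2 measured 10.15 and 9.74 log2 CPM with supernatant, against 8.69 and 8.93 with IFNG and 8.22 and 8.11 in untreated cells. Mt1 measured 8.09 and 8.08 with supernatant, against 7.38 and 7.48 with IFNG and 6.94 and 6.87 in untreated cells. For both genes, both supernatant libraries were above every other library in the table. Mt2 and Mt1 are among the genes of smallest p in this comparison, so this order adds no separate support. The differences from IFNG were 1.14 ± 0.18 for Mt2 (limma, adjusted p = 0.727) and 0.65 ± 0.13 for Mt1 (adjusted p = 1.0), so neither passed the test over all genes, though both had an unadjusted p under 0.05. Over the alternatives, library leave-outs included, the Mt2 difference lay between 0.94 and 1.34 and that of Mt1 between 0.61 and 0.70. Hmox1, the heme oxygenase gene, which responds to oxidants and heavy metals, had 3.73 and 4.28 with supernatant and 3.52 and 3.79 with IFNG, and these ranges overlap. The 4 genes had a median difference of 0.90, beside -0.01 over all genes, with 1.00 for supernatant library 1 and 0.79 for library 2 against the IFNG mean. This list was drawn up with an earlier result on these genes known.

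Set against untreated cells, Slc30a1, Mt2 and Mt1 rose with supernatant by 1.60 ± 0.17, 1.78 ± 0.18 and 1.18 ± 0.13 (limma, adjusted p = 0.00245, 0.00196 and 0.00426). They were among 57 genes that rose, 0.448% of those tested. IFNG gave -0.18, 0.64 and 0.53 for the same genes, and none of them passed, where 45 genes rose (0.354%). Both comparisons share the untreated libraries. In co-culture, Mt2 measured 10.44, 10.22 and 10.47 in MC38 with OT1 T cells, against 8.13, 7.81 and 8.51 in MC38 alone, and rose by 2.23 (adjusted p = 0.000303; 5.64% of genes rose). Mt1 rose there too, by 0.59 (limma, adjusted p = 0.0476). Of 6 T cell transcripts that both tables hold, 1 also passed there as higher. The median co-culture difference of the 6 was 1.696, beside -0.061 over 12003 genes tested in both tables. The part of T cell RNA in the rises of Mt2 and Mt1 was not tested. Slc30a1 did not pass there, at 0.03, -1.63 and -1.12 in co-culture and 1.24, 1.09 and -1.36 in MC38 alone. The value of -1.36 is the lowest step of its library, whereas untreated cells of the in vitro table had a mean of 3.61. At such low levels the co-culture table cannot decide whether Slc30a1 changed.

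The promoters of the 3 genes are shown because Slc30a1 was the 1 gene that passed and Mt2 and Mt1 share its known regulator. Each is the 250 bases before the RefSeq start on GRCm38.p6, 5' to 3' on the plus strand. Capitals mark matches, on either strand, to the core of the metal response element, spelled TGCACNC or TGCGCNC. The windows are chr1:191906531-191906780 for Slc30a1, chr8:94172368-94172617 for Mt2 and chr8:94178839-94179088 for Mt1.
Slc30a1: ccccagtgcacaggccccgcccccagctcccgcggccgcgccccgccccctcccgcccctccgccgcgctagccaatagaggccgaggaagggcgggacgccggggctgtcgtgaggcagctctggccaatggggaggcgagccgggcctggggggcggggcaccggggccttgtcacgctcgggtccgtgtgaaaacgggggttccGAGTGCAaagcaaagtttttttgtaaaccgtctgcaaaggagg
Mt2: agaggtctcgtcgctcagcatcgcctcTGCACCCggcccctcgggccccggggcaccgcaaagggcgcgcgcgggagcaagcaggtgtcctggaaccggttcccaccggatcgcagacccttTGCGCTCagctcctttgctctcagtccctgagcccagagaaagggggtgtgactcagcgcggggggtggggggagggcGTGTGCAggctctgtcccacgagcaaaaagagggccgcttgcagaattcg
Mt1: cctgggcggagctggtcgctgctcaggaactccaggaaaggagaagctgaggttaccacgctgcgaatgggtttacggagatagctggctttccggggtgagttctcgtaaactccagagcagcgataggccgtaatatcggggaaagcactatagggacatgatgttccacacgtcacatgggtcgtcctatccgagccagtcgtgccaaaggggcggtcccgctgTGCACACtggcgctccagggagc
Slc30a1 holds 1 match, starting 43 bases before its start, Mt2 holds 3 (223, 128 and 50 bases before) and Mt1 holds 1 (23 bases before). Of 32851 mouse promoter windows of this length, 21.4% hold at least 1 match and 5.17% at least 2, so a single match is common. A match is a description of the letters and not a measured binding site. Sequence outside these windows, such as that after the start used, was not searched, so the counts are not those of the whole promoter.

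**Figure D3:**
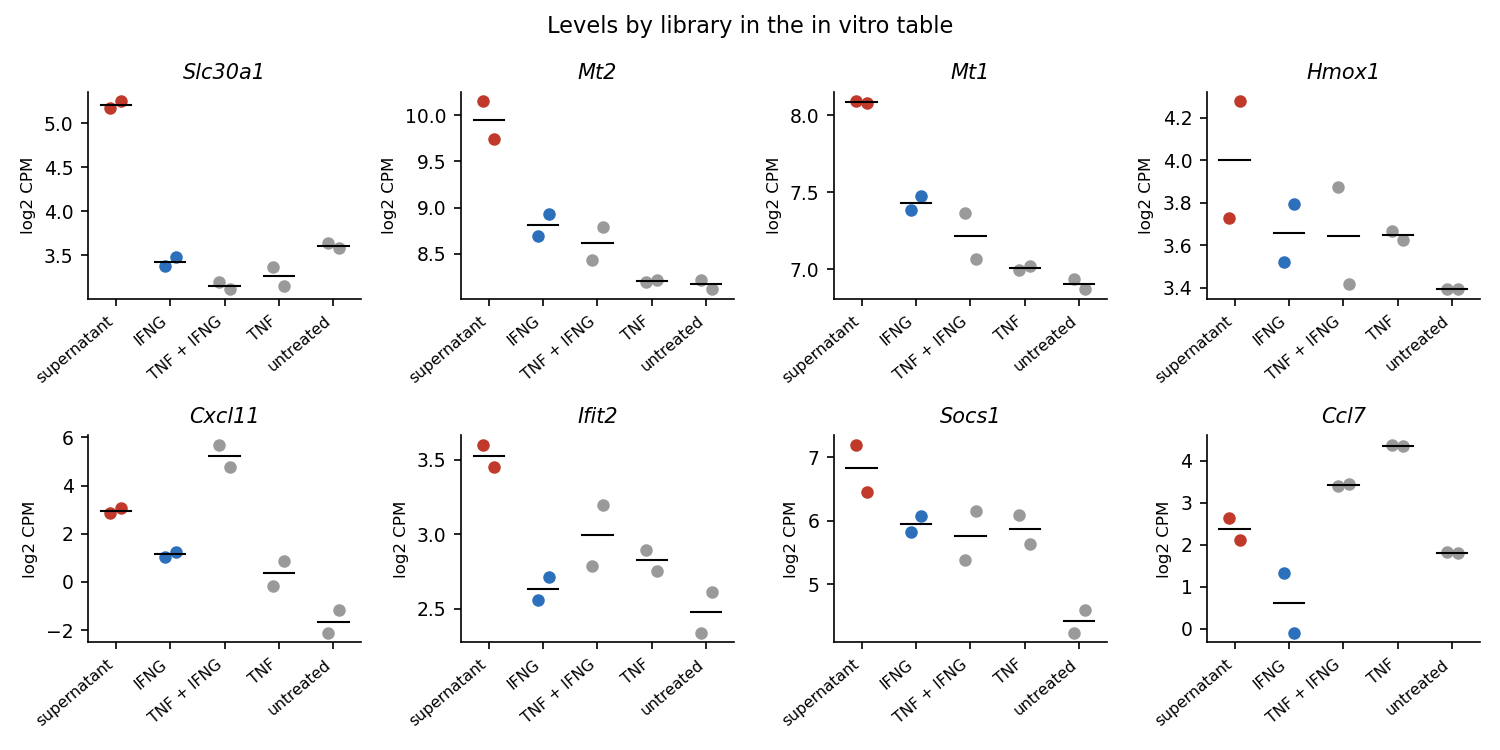
Levels in log2 CPM of 8 genes in each of the 10 in vitro libraries, with the bar at the mean of 2. Supernatant libraries are red, IFNG libraries blue and the others grey, and axes do not start at 0. Slc30a1, Mt2 and Mt1 are highest in both supernatant libraries, and Cxcl11 and Ccl7 are higher with TNF and IFNG together than with supernatant.

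Several transcription factors of the pathway lay close in both treatments. Irf1, an early target of IFNG that induces further genes, measured 10.21 and 10.27 log2 CPM with supernatant, against 10.08 and 10.15 with IFNG and 7.04 and 7.07 in untreated cells. The supernatant values lay above the IFNG values by a margin far smaller than the distance to untreated cells. The difference was 0.13 ± 0.12 (95% interval -0.14 to 0.40). Irf9, the DNA-binding subunit of the factor ISGF3, differed by 0.17 (-0.19 to 0.53), and Stat2, another subunit of it, by 0.09 (-0.32 to 0.51). Irf2 differed by 0.17 (-0.19 to 0.52) and Stat3 by 0.30 (-0.06 to 0.65), with supernatant values above the IFNG values in both. Irf3, Irf5, Irf7 and Irf8, at lower levels, had wider intervals.

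Of the 10 receptor, kinase, STAT and inhibitor genes, 8 had their interval inside 1 log2 unit (80.0%, beside 64.5% of all genes), and the median difference was 0.14. This share rose with level, to 89.3% of genes between 4 and 6 log2 CPM, so 80.0% does not show a closer match than usual. The receptor subunits differed by -0.01 (Ifngr1, interval -0.74 to 0.72) and 0.29 (Ifngr2), and the kinases by 0.06 (Jak1) and -0.37 (Jak2). The largest difference of the list was in Socs1, which encodes the feedback inhibitor of JAK kinases. It measured 7.20 and 6.46 with supernatant, against 5.83 and 6.08 with IFNG, a difference of 0.87 ± 0.32 (limma, adjusted p = 1.0), and the ranges do not overlap. Against untreated cells Socs1 rose with supernatant by 2.41 (limma, adjusted p = 0.0120), while IFNG gave 1.54 (adjusted p = 0.156). Socs3, which restrains STAT3 signalling, measured 3.72 and 2.06 with supernatant, against 2.32 and 1.95 with IFNG, so the high value was in 1 supernatant library.

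The interferon-induced GTPases, which attack the membranes around intracellular pathogens in mice, were raised to nearly the same level by both treatments. The 7 immunity related GTPases had a median difference of 0.03, the nearest to 0 of the interferon lists, ranging from -0.33 (Gvin1) to 0.13 (Iigp1). Of the 7, 5 had their interval inside 1 log2 unit (71.4%, beside 64.5% of all genes and 89.3% of genes between 4 and 6 log2 CPM). Their median rise over untreated cells was 4.97 log2 units with supernatant and 4.95 with IFNG, and 6 of 7 passed in each. Iigp1 measured 6.68 and 6.49 with supernatant, against 6.48 and 6.43 with IFNG and 1.01 and 1.06 in untreated cells. Igtp measured 6.35 and 6.73 with supernatant, against 6.54 and 6.47 with IFNG and 1.83 and 1.94 in untreated cells. Supernatant and IFNG values overlap for Igtp, but Igtp overlaps Irgm2 on the same strand and Tgtp1 has a near-identical copy in Tgtp2, so reads may be split within each pair.

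The guanylate binding proteins, a second family of such GTPases, had 6 of 10 members in the table. All 6 differences were positive, from 0.14 (Gbp9) to 0.58 (Gbp8), with a median of 0.26, and 0 reached an unadjusted p under 0.05. Gbp2 measured 5.83 and 5.99 with supernatant, against 5.70 and 5.72 with IFNG and 2.83 and 3.04 in untreated cells. Gbp7 measured 6.96 and 6.99 with supernatant, against 6.76 and 6.80 with IFNG and 3.61 and 3.54 in untreated cells. The supernatant values of both were above the IFNG values, by 0.20 and 0.19. Gbp4, Gbp8 and Gbp9 overlap each other, so their reads cannot be assigned with certainty.

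**Figure D4:**
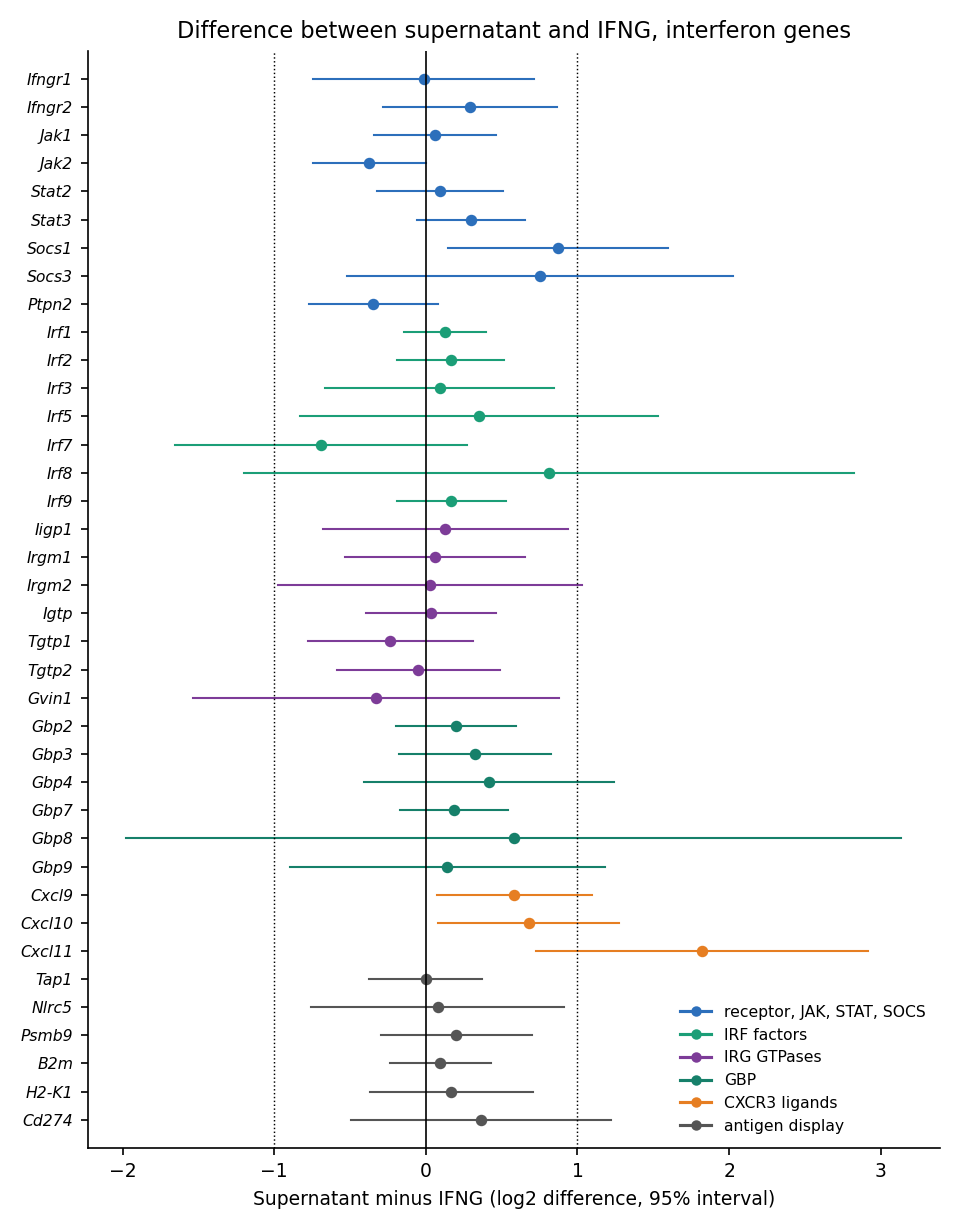
Supernatant minus IFNG difference on the log2 scale with its 95% interval for interferon pathway and antigen display genes. Dotted lines mark a 2-fold difference. Points of Irf1, Tap1 and most immunity related GTPases lie near 0, and those of Cxcl9, Cxcl10, Cxcl11 and Socs1 lie to the right with intervals that exclude 0 before adjustment.

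The chemokines that draw T cells through the receptor CXCR3 had the largest median difference of the interferon lists, 0.68, with 1.07 for supernatant library 1 and 0.54 for library 2 against the IFNG mean. Cxcl11 measured 2.85 and 3.08 log2 CPM with supernatant, against 1.05 and 1.23 with IFNG and -2.12 and -1.18 in untreated cells. Cxcl10 measured 8.34 and 7.57 with supernatant, against 7.25 and 7.31 with IFNG and 4.71 and 4.53 in untreated cells. Cxcl9 measured 3.29 and 3.20 with supernatant, against 2.58 and 2.74 with IFNG and 0.52 and 0.28 in untreated cells. For all 3 ligands both supernatant libraries lay above both IFNG libraries and below both libraries given TNF with IFNG. An order of supernatant above IFNG also held for Irf2 and H2-K1. Its share over all genes was not counted, so by itself it says little, here or for other genes. The differences were 1.82 ± 0.48, 0.68 ± 0.26 and 0.58 ± 0.23 for Cxcl11, Cxcl10 and Cxcl9 (limma, adjusted p = 1.0 for each, with an unadjusted p under 0.05 for all 3). With a library left out, the Cxcl10 difference ranged from 0.29 to 1.07. Cxcl11 is annotated as a polymorphic pseudogene in the reference strain and overlaps Art3 on the other strand, as does Cxcl10.

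Promoters of Irf1, Cxcl9 and Cxcl10 are shown as those of well-known IFNG targets, with the elements that such genes are known for. Windows of 250 bases before the RefSeq start on GRCm38.p6 are chr11:53769764-53770013 on the plus strand for Irf1 (the first of 2 starts), and chr5:92328080-92328329 and chr5:92348890-92349139 on the minus strand for Cxcl9 and Cxcl10. Capitals mark, in Irf1, a GAS match (TTCNNNGAA) and, in the chemokines, an ISRE core match (GAAANNGAA), both searched on either strand.
Irf1: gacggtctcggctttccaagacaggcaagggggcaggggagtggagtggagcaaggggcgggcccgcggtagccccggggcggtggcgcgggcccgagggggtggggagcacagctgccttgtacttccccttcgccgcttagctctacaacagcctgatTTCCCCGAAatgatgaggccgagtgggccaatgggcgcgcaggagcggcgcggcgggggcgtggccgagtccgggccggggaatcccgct
Cxcl9: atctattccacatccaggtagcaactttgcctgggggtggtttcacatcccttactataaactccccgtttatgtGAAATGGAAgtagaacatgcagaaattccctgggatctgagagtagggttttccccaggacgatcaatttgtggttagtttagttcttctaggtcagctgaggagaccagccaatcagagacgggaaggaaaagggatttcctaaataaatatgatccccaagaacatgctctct
Cxcl10: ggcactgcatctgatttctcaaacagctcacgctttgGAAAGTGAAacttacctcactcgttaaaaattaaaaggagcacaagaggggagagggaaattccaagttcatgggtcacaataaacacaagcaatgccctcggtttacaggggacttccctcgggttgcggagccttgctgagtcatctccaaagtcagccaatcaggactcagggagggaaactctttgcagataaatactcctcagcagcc
The GAS match of Irf1 starts 90 bases before its start, and the ISRE core matches start 175 bases before that of Cxcl9 and 213 before that of Cxcl10. Of all 32851 windows, 7.02% hold the GAS letters and 7.13% the ISRE core. The second Irf1 start has no GAS match in its window and the Cxcl9 and Cxcl10 windows have none. No ISRE core was found in either Irf1 window.

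Genes of the antigen display pathway showed no difference between the treatments that passed. Tap1, a subunit of the peptide transporter, measured 6.13 and 6.19 with supernatant, against 6.16 and 6.16 with IFNG and 4.01 and 4.08 in untreated cells, with an interval of the difference of -0.37 to 0.37. Nlrc5, the activator of MHC class I genes, differed by 0.08 (-0.76 to 0.91), B2m, the invariant MHC light chain, by 0.10 (-0.23 to 0.43) and H2-K1, a class I heavy chain, by 0.17 (-0.37 to 0.71). Of 17 class I and peptide loading genes, 12 had their interval inside 1 log2 unit (70.6%, beside 64.5% of all genes, not matched by level), with a median difference of 0.08. Cd274, which encodes the checkpoint ligand PD-L1, measured 5.15 and 4.02 with supernatant, against 4.06 and 4.38 with IFNG and 1.01 and 1.69 in untreated cells. Its supernatant and IFNG values overlap, and the difference was 0.36 ± 0.38.

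Among 36 genes of the type I interferon program that the factor ISGF3 drives, 26 had a positive difference, with a median of 0.10. Over all 12720 genes, 6172 differences were positive. Ifit2, an RNA-binding antiviral protein gene, measured 3.60 and 3.45 with supernatant, against 2.56 and 2.71 with IFNG and 2.34 and 2.62 in untreated cells. Both supernatant values were above all 8 other libraries, an order whose share over all genes was not counted. The difference was 0.89 ± 0.23 (limma, adjusted p = 1.0). Ifit2 was the 1 member of the list with an unadjusted p under 0.05. Isg15 (-0.06), Rsad2 (-0.09) and Usp18 (-0.31) had small negative differences. Rnf19b, a ubiquitin ligase gene that is not on this list, measured 7.32 and 7.74 with supernatant, against 6.88 and 6.89 with IFNG. It measured 5.49 and 5.43 in untreated cells, 7.94 and 7.66 with TNF and IFNG, and 6.86 and 6.92 with TNF. Its difference was 0.64 ± 0.17 (limma, adjusted p = 1.0).

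No target of NF-kB, the factor that TNF receptors activate, passed the test between supernatant and IFNG. Nfkbia, the NF-kB inhibitor gene, measured 8.19 and 8.08 with supernatant, against 7.73 and 7.63 with IFNG, 11.28 and 11.18 in cells given TNF and 7.87 and 7.79 in untreated cells. The difference of 0.45 ± 0.14 (limma, adjusted p = 1.0) was small beside the distance to the TNF libraries. Ier3, a survival gene that TNF induces, measured 7.78 and 8.11 with supernatant, against 8.23 and 8.28 with IFNG, with the opposite sign (-0.32). Nfkbib, another inhibitor gene, also had a negative difference (-0.57). Of 24 NF-kB targets, 16 had their interval inside 1 log2 unit (66.7%, beside 64.5% of all genes, not matched by level), and the median difference was 0.14. For the 33 genes that TNF raised over untreated cells (0.259% of genes) the median difference was 0.20, and 26 of the differences were positive. Over all 12720 genes, 6172 were positive. At an unadjusted p under 0.05 in limma, 4 of the 33 were higher and 2 lower, beside 1.29% and 1.43% of all genes.

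None of the 5 measured chemokines for monocytes and neutrophils passed the test, though all 5 differences were positive. Ccl2, a monocyte attractant, measured 7.20 and 5.84 with supernatant, against 5.64 and 5.30 with IFNG and 6.43 and 6.92 in untreated cells. Ccl7, a related attractant, measured 2.64 and 2.11 with supernatant, against 1.33 and -0.10 with IFNG and 1.83 and 1.79 in untreated cells. Both supernatant values exceeded the IFNG values for these genes, with differences of 1.05 ± 0.43 and 1.75 ± 0.42 (limma, adjusted p = 1.0 for both). Cxcl1, a neutrophil attractant, measured 3.97 and 2.33 with supernatant, against 2.41 and 2.54 with IFNG and 3.96 and 4.20 in untreated cells. Ccl5, which draws monocytes and T cells, measured 5.34 and 5.79 with supernatant, against 5.47 and 5.54 with IFNG, a difference of 0.06. Against the IFNG mean, the 5 genes of this list had a median difference of 1.50 in supernatant library 1 and 0.37 in library 2.

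The supernatant libraries also split in Txnip and Tap2, whose IFNG values lay below the untreated ones without passing the test. Txnip, an inhibitor of thioredoxin and glucose uptake, measured 7.39 and 5.20 with supernatant, against 5.45 and 5.67 with IFNG and 7.06 and 7.48 in untreated cells. Tap2, the partner of Tap1, measured 5.67 and 3.08 with supernatant, against 3.10 and 3.33 with IFNG and 5.14 and 5.88 in untreated cells. In both genes supernatant library 1 lay with the untreated cells and library 2 with the IFNG cells. Their mean differences of 0.73 ± 0.70 and 1.16 ± 0.74 therefore describe neither library.

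Gene sets were also taken from other libraries. TNF with IFNG raised 335 genes over 2-fold at an adjusted p under 0.05 (2.63%) and lowered 288 (2.26%). Over the 335 raised genes the median supernatant minus IFNG difference was 0.00, with -0.17 for supernatant library 1 and 0.14 for library 2. Over the 288 lowered genes it was 0.20, with 0.50 for library 1 and -0.11 for library 2. The sign of both medians thus differed between the supernatant libraries. Of 491 genes raised over 2-fold in co-culture (3.96%), 434 were tested in vitro, with a median difference of 0.07, with 17 positive and 5 negative at an unadjusted p under 0.05, beside 1.29% and 1.43% over all genes.

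**Figure D5:**
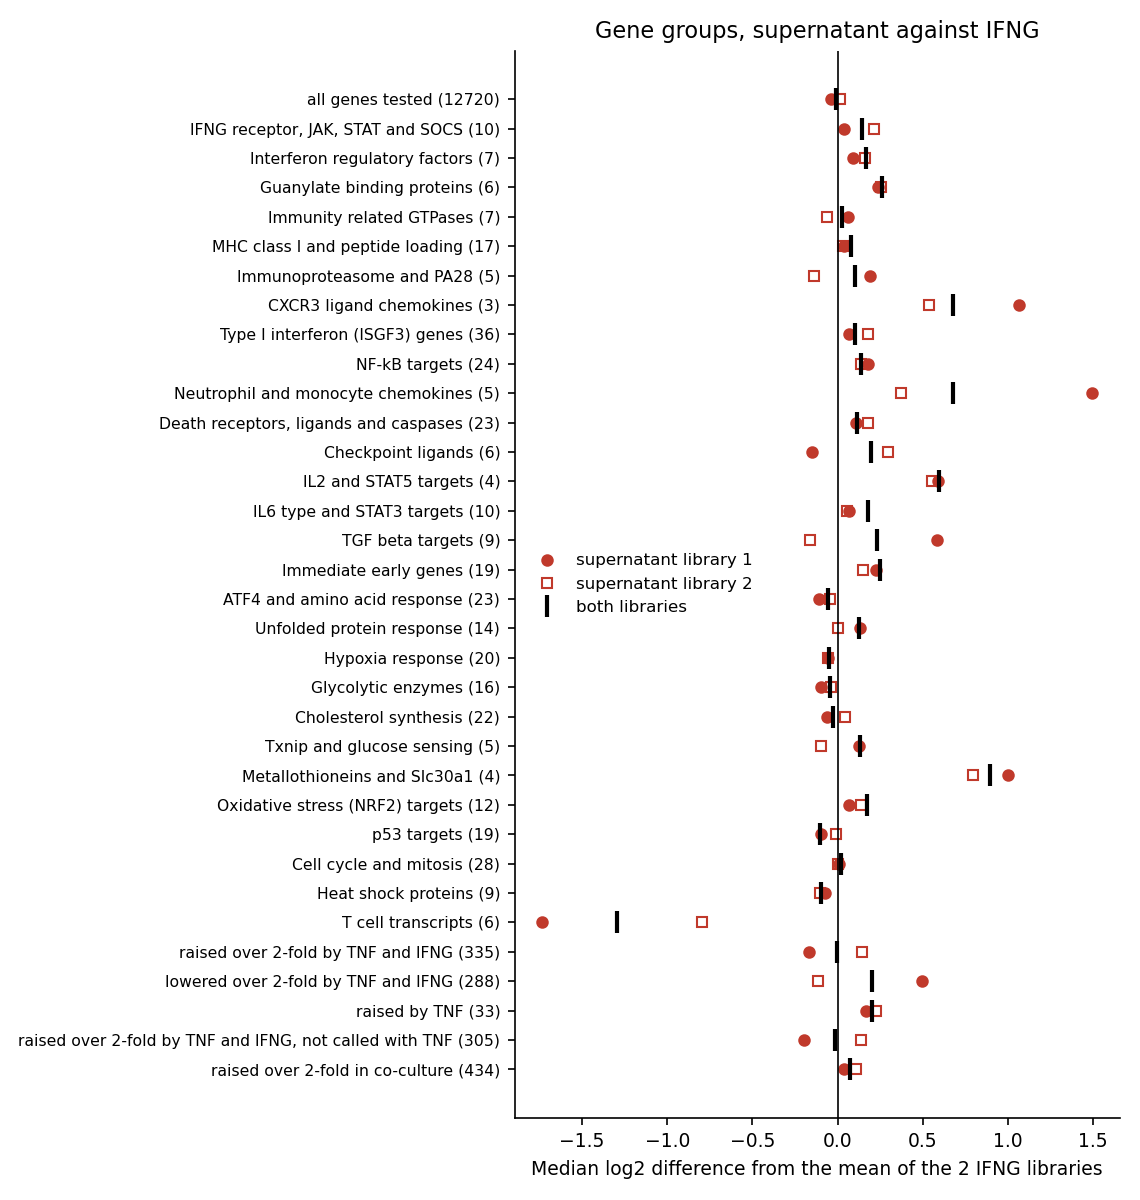
Median log2 difference from the mean of the 2 IFNG libraries for each gene group with at least 3 tested genes (number in brackets), for supernatant library 1 (filled circles), supernatant library 2 (open squares) and both (bars). Bars lie at 0.90 for the metallothionein group, 0.68 for both chemokine groups and -1.29 for the 6 T cell transcripts, and the monocyte chemokines and the genes lowered by TNF and IFNG separate the libraries.

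Heat shock, cell cycle, cholesterol and glycolysis lists had medians near 0. All 9 measured heat shock genes, 27 of 28 cell cycle genes and 21 of 22 cholesterol synthesis genes had their interval inside 1 log2 unit. That share was 64.5% over all genes and rose with level. The medians of these lists were -0.10, 0.02 and -0.03, in that order. Glycolytic enzymes had a median of -0.05. Hypoxia genes also had a median of -0.05, with 3 of 20 negative at an unadjusted p under 0.05, beside 1.43% of all genes. Ankrd37 and Adm, both induced by low oxygen, had the most negative differences of the hypoxia list (-1.02 and -1.01; limma, adjusted p = 1.0 for both). The median was -0.06 for the ATF4 list, -0.10 for p53 targets, 0.13 for the unfolded protein response, 0.17 for oxidative stress genes and 0.11 for death receptors, their ligands and caspases. Medians farther from 0 were those of immediate early genes (0.25, with 14 of 19 positive) and TGF beta targets (0.23, with 8 of 9 positive). That of IL2 and STAT5 targets was 0.60, with 4 of 8 genes tested. Over all 12720 genes, 6172 differences were positive. The TGF beta median was 0.59 for supernatant library 1 and -0.16 for library 2 against the IFNG mean. Against untreated cells, the TGF beta list had a median of -0.26 with supernatant and -0.44 with IFNG. The IL2 and STAT5 list had -0.16 and -0.78. No member of the immediate early, TGF beta or IL2 and STAT5 lists passed.

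Myc, the growth-promoting transcription factor gene, measured 2.76 and 2.43 with supernatant, against 1.54 and 1.44 with IFNG and 3.03 and 3.64 in untreated cells. Ccnd1, the cyclin D1 gene, measured 10.43 and 10.19 with supernatant, against 9.80 and 9.93 with IFNG and 10.27 and 10.26 in untreated cells. In both genes the supernatant values exceeded the IFNG values and overlapped or lay nearer to the untreated ones. The differences were 1.11 ± 0.32 and 0.45 ± 0.14 (limma, adjusted p = 1.0 for both). Smad7, the inhibitor of TGF beta signalling, differed by 0.84 ± 0.22 (limma, adjusted p = 1.0). Dctd (1.01), a nucleotide metabolism gene, and Aff1 (0.55), a transcription elongation gene, were the other coding genes of at least 3 log2 CPM with the smallest p on this side.

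On the other side, the smallest p-values of genes at that level belonged mostly to processed pseudogenes, whose reads may come from near-identical parent genes. Gm12504 measured 2.04 and 2.06 with supernatant, against 7.91 and 5.23 with IFNG, a difference of -4.52 ± 0.79 (limma, adjusted p = 0.990). Gm13772 (-2.90), Rpl36-ps3 (-2.31), Rpl31-ps13 (-0.94) and Rpl31-ps14 (-0.84) were of the same kind, and so was Gm9800 on the positive side (3.16), whose untreated libraries differed by more than 3 log2 units (9.73 and 6.16). Coding genes were Trak1, which carries mitochondria along microtubules (3.85 and 3.73 with supernatant, against 4.43 and 4.48 with IFNG), and Aig1 (-0.67), and the mitochondrial tRNA mt-Tm had a difference of -0.82. None of these passed with all libraries. Gm12504 passed without IFNG library 2 (-5.87, limma, adjusted p = 0.0194), where the other IFNG library, at 7.91, is assumed to vary like the other groups, and Gm9800 without either untreated library or with the compared groups alone.

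Il2, a cytokine gene of T cells, measured 0.01 and 0.10 log2 CPM with supernatant. It measured 2.65 and 2.00 with IFNG and 1.23 and 1.31 in untreated cells. Cells given TNF and IFNG had 3.96 and 3.70, and cells given TNF 2.38 and 3.34. Both supernatant values were below all 8 others, an order whose share over all genes was not counted. The difference from IFNG was -2.27 ± 0.36 (limma, adjusted p = 0.727). Of 33 T cell transcripts on the list, 6 were tested, with a median difference of -1.29. Il2 overlaps Adad1 on the opposite strand, so reads of the 2 genes cannot be told apart without strand.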

How the data were processed

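RNA of MC38 cells was made into QuantSeq 3' libraries, per the labels' protocols. Tools listed in the submitters' processing notes include cutadapt 1.7, HISAT2, featureCounts and limma, with the builds GRCm38 and mm10. The deposited values are log2 CPM, a unit read from the values, since 2 to their power sums to between 993230 and 998505 in each library. Sorted libraries differ by at most 0.0235 above the median, a pattern that quantile normalization by the authors leaves, so a shift of most transcripts cannot be seen. Groups came from the labels.

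All 10 in vitro libraries were fitted together in limma 3.58.1 (R 4.3.3) with variances moderated by empirical Bayes along the mean level (5 residual and 3.74 prior degrees of freedom) and no replicate block. A gene needed a log2 value of at least 0 in 2 libraries (3 in co-culture). P-values are 2-sided and adjusted by the Benjamini-Hochberg method, with a threshold of 0.05. The co-culture fit used 6 libraries and 12399 genes. A permutation of 2 against 2 libraries cannot give a p below 0.333. The fits were tested on simulated data.

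Gene lists (31) and the comparison were chosen with earlier results of these data known. Named genes were those called, the 8 of smallest p per direction with a mean of at least 3 log2 CPM over the 4 libraries, the members of 5 interferon lists with a set of single genes, and the member of smallest p in every other list. A gene of these lists is not reported here. Isg15, Rsad2, Usp18, Adm and Hmox1 were named after their values were seen. Of the in vitro names, 15 had become dates and are not named. The 4 libraries share only replicate numbers. Alternatives left out each library, fitted the compared groups only, dropped the trend, added a block or library weights, filtered more strictly, used log2(CPM + 1) or rescaled by cyclic loess.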

Additional observations from a re-analysis of the deposited data

How the results depend on the processing

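The 1 gene higher with supernatant than with IFNG became 2 with the compared groups alone, 0 without the trend, 0 with the replicate block and 0 to 7 with a library left out. The 0 genes lower became 0 to 5 with a library left out. The 8206 genes whose interval lay inside 1 log2 unit became 7993 with the block, 6360 to 8602 with a library left out and 10220 on the log2(CPM + 1) scale, which shrinks differences of low genes by its construction. The replicate numbers are shared by name only, the deviations of the supernatant and IFNG libraries correlated at -0.099, and under the block Slc30a1 had an adjusted p of 0.106 in limma.

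Genes changed with supernatant against untreated cells (57) became 36 with the compared groups alone. Those with IFNG (45) became 488 with the compared groups alone, 297 with library weights and 29 to 50 with a library left out. Those with TNF and IFNG (1147) became 143 with the compared groups alone, 467 without the trend, 594 with the block, 656 with weights and 88 to 2165 with a library left out, so the sets of 335 and 288 genes depend on the setting. Those with TNF (35) became 61, 18 and 72 with the compared groups alone, without the trend and with weights, and 11 to 41 with a library left out. Genes changed in co-culture (1182) became 2188 with weights and 448 to 1859 with a library left out. The causes were not tested.

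Of 88 named genes, 26 had differences of both signs over the alternatives, none of them called, among them Cd274 (-0.20 to 0.93), Irgm2 (-0.59 to 0.65), Txnip (-0.36 to 1.83), Tap2 (-0.13 to 2.46) and Cxcl1 (-0.14 to 1.50). So did 7 of 28 list medians. The 12 calls lost were all of Slc30a1. The 4 gained were of Gm9800 (3 alternatives) and Gm12504 (1). Staying short of the threshold shows no stability in this design. Counting each list median once per alternative, 441 moved by less than the spread between libraries and 35 by more. With 2 libraries a group and a 95% interval reaching a median of 0.59 log2 units either way, a 2-fold difference in a gene under 2 log2 CPM was mostly not detectable at this depth. At high levels too, a difference of about 2-fold could miss the threshold. Mt2, at a mean of 9.95 log2 CPM with supernatant, differed from IFNG by 1.14 without passing (limma, adjusted p = 0.727).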
